A study of Mus musculus with 6 samples.

Results

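Integrin subunits, laminin chains and the proteins that join them in basal laminae were followed through the cell classes of the mouse sciatic nerve at postnatal days 1 (P1) and 60 (P60). Members were picked by gene symbol alone: every integrin alpha or beta subunit, every laminin alpha, beta or gamma chain, and the linker and receptor genes Nid1, Nid2, Hspg2, Agrn and Dag1. That rule found 43 of the 41605 genes in the count matrices, under 42 symbols: 11 laminin chains, 19 integrin alpha entries, 8 integrin beta subunits and 5 others. The symbol Itgam belonged to 2 entries, of which ENSMUSG00000108596 carries the name Gm49368 in GENCODE M21 and overlaps Itgam on the same strand of chromosome 7, so reads of the pair may be split between them. The animals were P0Cre:ReYFP mice that also carried the βAct-DsRed transgene, on the C57bl/6J background; dsRed marks all cells, and eYFP marks Schwann cells because the Cre is driven by the P0 promoter. Both ages shared these alleles, and each age had 3 libraries, each from an independent suspension in which cells of male and female animals were pooled 1:1. dsRed-positive cells were sorted, and at P1 part of the eYFP-positive Schwann cells was removed in the sort, so cell numbers were not compared between ages.

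A basal lamina is a thin sheet of matrix that coats Schwann cells, perineurial cells, endothelium and mural cells. Its scaffold is built from laminins, each a trimer of an alpha, a beta and a gamma chain, and from type IV collagen; nidogens and perlecan (Hspg2) tie these networks together, and agrin (Agrn) links laminin to dystroglycan. Cells hold the sheet through laminin receptors: integrins, which pair an alpha with a beta subunit, and dystroglycan (Dag1), which reaches the cytoskeleton through the dystrophin-glycoprotein complex. In nerve, Lama2 encodes the alpha chain of the main Schwann cell laminin, and its loss causes a congenital muscular dystrophy with dysmyelinating neuropathy.

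Counts were unique molecular identifiers (UMIs) from 10x 3′ libraries, which held 20203440 to 30334608 UMIs each. After filters on genes per cell, clusters built without the member genes were named from marker genes as Schwann-like, endoneurial-like, perineurial-like, epineurial-like, endothelial-like, mural-like and immune-like cells, and these classes are given below by the name alone. The classes held 3097 Schwann, 1329 endoneurial, 1013 perineurial, 495 epineurial, 591 endothelial, 601 mural and 942 immune cells at P1, and 315, 856, 2434, 4543, 1557, 843 and 1269 cells in that order at P60. At P1, 2803 fibroblasts took none of the 3 sheath names and were left out, and the perineurial name rested on 4 of 9 markers, whose summed level was 658 to 708 CPM at P1 against 4762 to 4916 CPM at P60. The 3 P60 Schwann libraries held only 70, 83 and 162 such cells. A level is the gene's counts per 1000000 UMIs (CPM) of that class in 1 library; since 3′ tags are counted once per molecule, gene length does not enter it. A change is the log2 ratio of P60 over P1 from edgeR's quasi-likelihood test on UMIs summed per library and class. Its standard error (SE) was derived as the absolute log2 ratio over the square root of the test's F statistic. A member rose or fell where its p, adjusted over all genes tested in that class, was under 0.05. In P60 replicate 3, 16.2% of cells had over 10% mitochondrial UMIs, against 2.97% and 4.84% in the other P60 libraries and 9.56% to 13.6% at P1. Libraries shared 14 to 33 cell barcodes per pair.

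In every class some members passed the test between P1 and P60, in different directions. Of 27 members tested in perineurial cells 16 rose and 6 fell, where 28.4% of all genes tested rose and 26.7% fell. In endoneurial cells 11 of 22 rose and 5 fell (23.9% and 22.6% of all genes), and in epineurial cells 11 of 26 rose and 3 fell (18.1% and 16.3%). These sheath fibroblasts gained more members than they lost. Endothelial cells showed the opposite balance, with 8 of 25 higher and 11 lower (20.4% and 18.8% of all genes). In Schwann cells 8 of 23 rose and 9 fell (19.1% and 19.2%), in mural cells 5 of 21 rose and 7 fell (17.9% and 15.9%), and in immune cells 10 of 26 rose and 7 fell (20.4% and 16.9%). The endoneurial share that fell, 22.7%, was near that of all genes, and the perineurial (22.2%) and epineurial (11.5%) ones were under it. The mural share that rose, 23.8%, was not far from that of all genes. Members include leukocyte integrins, so the immune counts are not of basal lamina genes alone. The median member changed by 0.53 on the log2 scale in perineurial, 0.42 in endoneurial, 0.60 in epineurial, -0.48 in endothelial, -0.14 in Schwann, 0.00 in mural and 0.11 in immune cells, where the median over all genes tested lay between -0.01 and 0.03. Only members with enough UMIs entered these tests, so the counts describe the members tested and not all 43. The ages did not hold the same kinds of cell within a class. The P1 Schwann class held 518 proliferating cells and 971 with no subtype name, and at P60 all Schwann cells were myelinating or non-myelinating/immature. The P1 epineurial class was 1 sub-cluster, led by genes such as Krtdap and Pi16, and the P60 class pooled 3, of which 1897 cells had these among their leading genes while 1406 (led by Mfap4 and Cilp) and 1240 (led by Cxcl14 and Gdf10) had no P1 sub-cluster of the same name and leading genes. P60 perineurial cells likewise pooled 3 sub-clusters against 1 at P1. Within a class, a change per cell and a change in the kinds of cell cannot be told apart here, except where subtypes are given. The Schwann count rested in part on P1 replicate 2: without it 11 rather than 17 members were called, and Hspg2 (adjusted p = 0.0555), Itgb1 (0.153), Lama4 (0.113) and Nid1 (0.124) were lost, while Itga2 and Lama5 fell under the count filter; without P1 replicate 1 or 3 the count was 12.

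**Figure D1:**
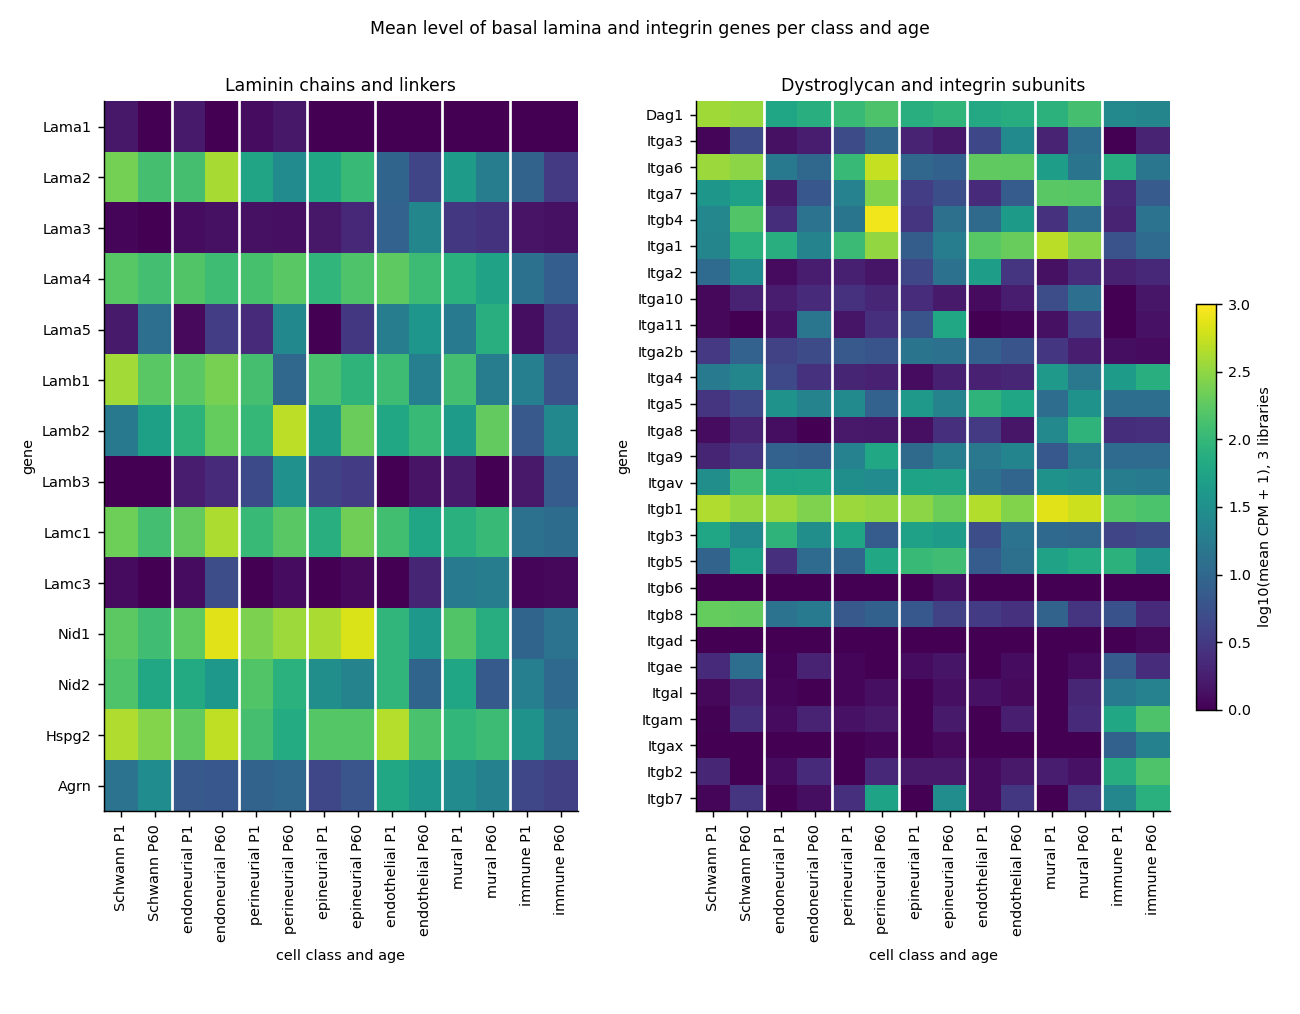
Mean level of members in each class and age, as log10(mean CPM + 1) over 3 libraries; rows are genes (laminin chains and linkers left, receptors right), columns are classes with P1 before P60. Lama2, Lamb1 and Lamc1 are brightest in Schwann cells at P1 and in endoneurial cells at P60, and Itgb4 and Itga6 in perineurial cells at P60.

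**Figure D2:**
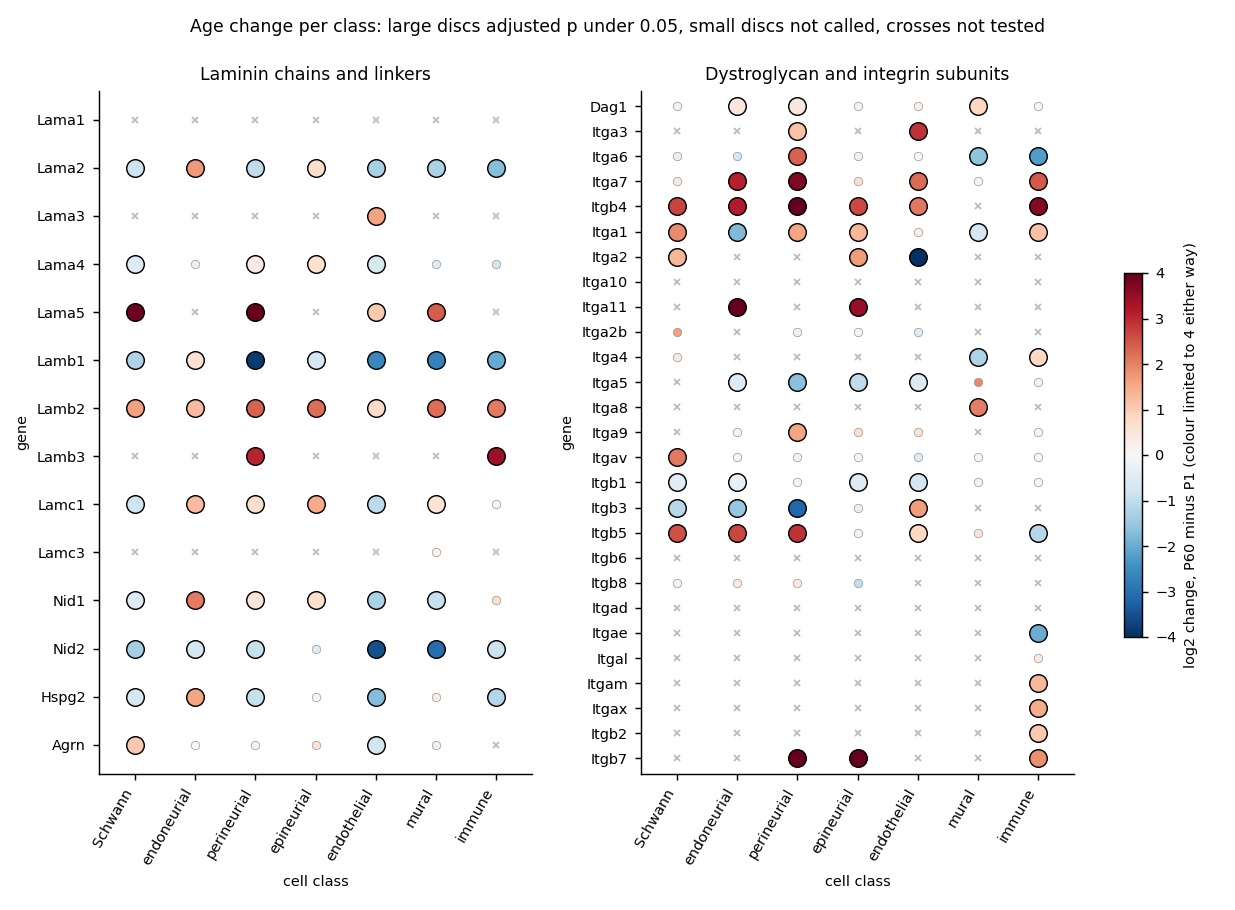
Log2 change from P1 to P60 (colour, limited to 4 either way) of members (rows) in each class (columns); large discs passed the test, small discs did not, and crosses were not tested. Lamb2 is higher at P60 in all 7 classes, and Lamb1 is lower in 6 of them.

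Among laminin alpha chains, Lama2 was highest in Schwann cells at P1 and in endoneurial cells at P60. These are levels within a class, and the amount that each class makes in the nerve was not measured. Schwann cells held 228, 247 and 235 CPM in the P1 libraries and 101, 102 and 189 CPM in the P60 libraries, and Lama2 fell there (log2 change -0.84, SE 0.17, adjusted p = 9.25e-04); P60 replicate 3 stood above the other P60 libraries but below every P1 library. Endoneurial cells held 129, 127 and 129 CPM in the P1 libraries and 376, 362 and 469.6 CPM in the P60 libraries, a rise (log2 change 1.73, SE 0.12, adjusted p = 3.41e-08) that put all 3 above every Schwann library of either age. Lama2 also rose in epineurial cells, from 61.2 ± 5.68 to 103 ± 5.83 CPM (SD, n = 3; log2 change 0.72, SE 0.14, adjusted p = 0.00189), and fell in perineurial (-1.02), mural (-1.25), endothelial (-1.32) and immune cells (-1.70), the last 2 from levels under 9 CPM. The endothelial call was lost without P1 replicate 3 (adjusted p = 0.127) and without P60 replicate 2 (0.0509).

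Schwann cells carried fibroblast transcripts at both ages, which bears on any matrix gene there. All 7 fibroblast markers were detected, with a sum of 4635 to 4909 CPM in P1 and 2189 to 2507 CPM in P60 libraries, or 12.6% and 8.12% of the fibroblast level. Of 9 endoneurial markers, all were seen at P1 and 6 at P60 (Col2a1, Plxdc1 and Wif1 were at 0), with a sum of 133 to 146 CPM and 178 to 199 CPM, or 9.99% and 16.5% of the endoneurial level. At P1 the Schwann level of Lama2 was above that of each fibroblast class (128, 61.2 and 54.9 CPM in endoneurial, epineurial and perineurial cells); the part of these transcripts in the Schwann values at P60 was not tested.

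Lama4, the alpha chain of vessel and Schwann cell laminins, was widely spread and lowest in immune cells. At P1 it ran from 80.3 CPM in mural to 178 CPM in endothelial cells, with endothelial, Schwann and endoneurial libraries overlapping, and only immune cells were low (12.5 CPM). Endothelial cells held 171, 196 and 166 CPM in the P1 libraries and 111, 104 and 126 CPM in the P60 libraries and fell (log2 change -0.64, SE 0.12, adjusted p = 0.00143), whereas perineurial cells held 136, 125 and 137 CPM in the P1 libraries and 169, 158 and 184 CPM in the P60 libraries and rose (log2 change 0.36, SE 0.11, adjusted p = 0.0136). Perineurial cells thus held the highest Lama4 at P60, above epineurial cells (148 ± 1.45 CPM), where it also rose (0.63). Its Schwann decrease (log2 change -0.50, SE 0.16, adjusted p = 0.0177) was lost when any P1 library or P60 replicate 3 was left out (adjusted p = 0.0505 to 0.113), and the perineurial increase without P1 replicate 2 (0.0747) or 3 (0.0503).

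Lama5, the alpha chain of vascular and epithelial basement membranes, rose in all 4 classes where it could be tested. Mural cells held 15.2, 12.5 and 21.0 CPM in the P1 libraries and 69.5, 48.6 and 114 CPM in the P60 libraries, the highest P60 level (log2 change 2.41, SE 0.37, adjusted p = 4.66e-04), with P60 replicate 3 far above its group. Vascular smooth muscle made up 152 of 601 mural cells at P1 and 531 of 843 at P60; in smooth muscle alone Lama5 went from 35.8, 47.6 and 67.0 to 104, 74.4 and 140.0 CPM (log2 change 1.32, adjusted p = 0.00921), and in pericytes alone, where it had too few UMIs for the test, from 6.21, 1.27 and 6.05 to 17.2, 23.4 and 35.8 CPM. Endothelial cells held 14.6, 18.4 and 20.7 CPM in the P1 libraries and 29.9, 37.8 and 41.6 CPM in the P60 libraries (log2 change 1.03, SE 0.20, adjusted p = 0.00156). The chain was nearly undetected in perineurial cells at P1 and clear at P60, with 1.44, 1.19 and 1.32 CPM in the P1 libraries and 18.7, 23.0 and 30.3 CPM in the P60 libraries (log2 change 4.15, SE 0.31, adjusted p = 3.80e-07). Mural markers stood at 13.5% of the mural sum in P60 perineurial cells, and their part in this change was not tested. In Schwann cells Lama5 rose from 0.658 to 11.6 CPM (3.91), on 2, 4 and 3 UMIs in the P60 libraries. Endothelial and mural markers stood at 2.78% and 1.06% of their own levels in P60 Schwann cells, and their part was not tested. Lama5 took 0 of 3330242 epineurial UMIs in the P1 libraries and 47 among 24334357 at P60, at least 2.14-fold higher against a floor of 3 UMIs over the group. Lama3, an alpha chain best known from epidermal laminin, was seen above 3 CPM only in endothelial cells, with 11.2, 6.75 and 5.17 CPM in the P1 libraries and 21.0, 21.4 and 27.0 CPM in the P60 libraries (log2 change 1.60, SE 0.28, adjusted p = 5.68e-04), while Lama1, the embryonic and epithelial alpha chain, stayed under 1 CPM in every class. Mural markers, all 8 of them, summed to 71.1 to 125 CPM in P1 endothelial libraries and 1493 to 2161 CPM in P60 ones, or 7.50% of the mural level; Lama3 was at 1.76 CPM in mural cells at P60, and for Lama5 the part of mural transcripts was not tested.

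**Figure D3:**
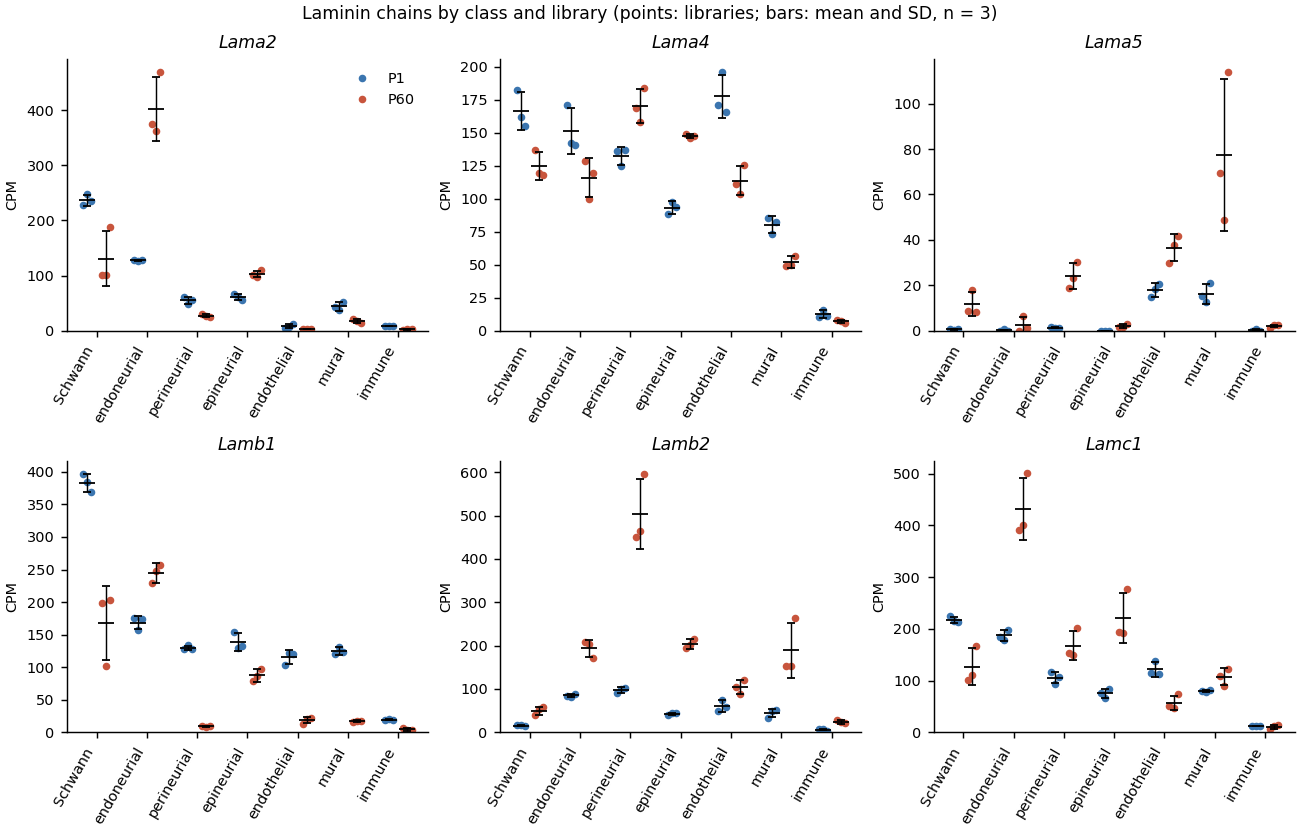
CPM of 6 laminin chains in each library (points), with mean and SD (bars, n = 3), for 7 classes at P1 (blue) and P60 (red). Among P60 points, endoneurial cells lie highest for Lama2, Lamb1 and Lamc1, perineurial P60 points for Lamb2 and mural P60 points for Lama5.

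The beta chains changed in opposite directions: Lamb2 rose in all 7 classes, while Lamb1 fell in 6 and rose only in endoneurial cells. Lamb1 encodes the beta chain found widely in early basal laminae, and Lamb2 that of synaptic, renal and mature vascular ones. Perineurial cells held 128, 134 and 129 CPM in the P1 libraries and 9.67, 8.69 and 8.84 CPM in the P60 libraries of Lamb1, with no overlap (log2 change -3.84, SE 0.14, adjusted p = 8.11e-10). Of Lamb2 the same cells held 90.3, 101 and 103 CPM in the P1 libraries and 451, 465 and 597 CPM in the P60 libraries, the highest level of any class at either age (log2 change 2.36, SE 0.13, adjusted p = 2.38e-08). Lamb2 therefore made up 42.9% ± 1.53 (SD, n = 3) of the Lamb1 and Lamb2 UMIs of perineurial cells at P1 and 98.2% ± 0.323 at P60.

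The vessel wall changed in the same way. Lamb1 fell in endothelial cells from 103, 122 and 121 to 12.9, 20.5 and 22.3 CPM (log2 change -2.61, SE 0.19, adjusted p = 4.09e-07) and in mural cells from 120.2, 131 and 123 to 16.3, 17.8 and 17.9 CPM (log2 change -2.70, SE 0.19, adjusted p = 3.39e-06). Lamb2 rose in mural cells from 33.6, 48.2 and 52.0 to 153, 153 and 263 CPM (log2 change 2.23, SE 0.28, adjusted p = 1.32e-04), and in endothelial cells from 49.5, 75.5 and 58.2 to 103, 88.0 and 120.1 CPM (log2 change 0.77, SE 0.17, adjusted p = 0.00365). The Lamb2 share went from 26.1% ± 3.98 to 91.2% ± 2.15 in mural and from 34.4% ± 3.32 to 84.8% ± 3.90 in endothelial cells. Mural markers stood at 7.50% of the mural level in P60 endothelial cells, and the part of mural transcripts in endothelial Lamb2 was not tested.

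Schwann cells kept mostly Lamb1. They held 397, 384 and 369 CPM in the P1 libraries and 199, 102 and 203 CPM in the P60 libraries, the highest P1 level, and Lamb1 fell there (log2 change -1.23, SE 0.16, adjusted p = 1.24e-05); P60 replicate 2 lay below the other P60 libraries. Lamb2 rose from 16.2, 16.5 and 13.7 to 39.7, 53.2 and 57.5 CPM (log2 change 1.65, SE 0.27, adjusted p = 1.17e-04), and its share from 3.87% ± 0.267 to 24.4% ± 9.02, the P60 shares resting on 54, 35 and 95 UMIs of both genes. Of these, 9, 12 and 21 UMIs were Lamb2, and the part of fibroblast transcripts in them was not tested. Endoneurial cells were the exception for Lamb1, which rose from 175, 157 and 173 to 229, 248 and 257 CPM (log2 change 0.62, SE 0.11, adjusted p = 4.17e-04), so that at P60 they held more than any other class. Lamb2 also rose in them, from 84.7, 82.2 and 88.4 to 208, 203 and 172 CPM (log2 change 1.28, SE 0.13, adjusted p = 1.62e-06), and the share moved less, from 33.6% ± 0.880 to 44.2% ± 3.83. In epineurial cells Lamb1 fell from 154, 129 and 132 to 78.2, 87.2 and 97.9 CPM (log2 change -0.69, SE 0.14, adjusted p = 0.00238) and Lamb2 rose from 39.6, 44.5 and 43.4 to 194, 203 and 216 CPM (log2 change 2.23, SE 0.14, adjusted p = 1.51e-07), which took the share from 23.6% ± 2.82 to 70.0% ± 1.24. Immune cells, with 24.1 CPM of Lamb2 at P60, stood at 4.79% of the perineurial level and had 1.75% of its perineurial marker sum, so their share (23.6% ± 5.43 and 84.7% ± 3.77) is given as a value only. In each of the 7 classes all P60 shares lay above all P1 shares, for which the exact two-sided permutation test gives p = 0.1, the smallest that 3 libraries against 3 allow. Transcripts of both genes may be captured with unequal efficiency, so a share compares ages and not the proteins.

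**Figure D4:**
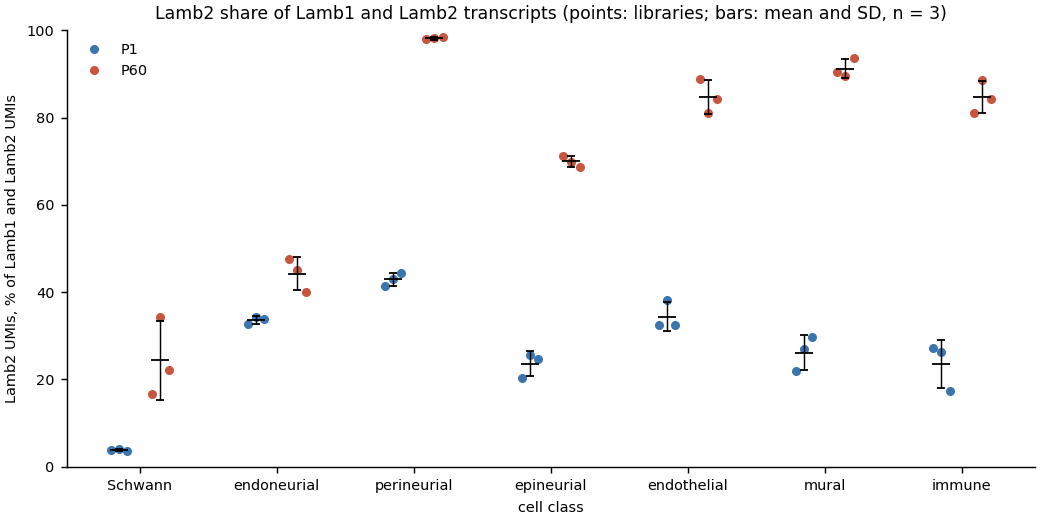
Lamb2 UMIs as a percentage of Lamb1 and Lamb2 UMIs in each library (points), with mean and SD (bars, n = 3), for 7 classes at P1 (blue) and P60 (red). Every P60 point lies above the P1 points of its class, and Schwann cells hold the lowest shares at both ages.

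The sequences before the first exon of both genes are shown because their transcripts moved apart in 6 of 7 classes. They come from RefSeq's promoter table for GRCm38.p6, plus strand, and stop before the first exon; capitals mark GC boxes (GGGCGG or its complement CCGCCC).
Lamb1, chr12:31265043-31265233: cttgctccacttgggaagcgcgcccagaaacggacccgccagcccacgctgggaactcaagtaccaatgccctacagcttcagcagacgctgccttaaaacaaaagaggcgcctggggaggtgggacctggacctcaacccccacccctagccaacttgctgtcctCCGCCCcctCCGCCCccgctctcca
Lamb2, chr9:108479612-108479735: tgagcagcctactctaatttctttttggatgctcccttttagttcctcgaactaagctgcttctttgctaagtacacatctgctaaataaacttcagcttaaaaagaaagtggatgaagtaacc
The Lamb1 stretch held 2 GC boxes in 191 bases and 63.9% G and C, while that of Lamb2 held 0 in 124 bases and 37.9%. The table held 32 promoters of 27 of the 42 symbols; in the 250 bases before the start, on both strands, 15 of these 32 had a GC box (32.7% of all 32851 promoters), 0 had TATAAA (12.4%) and 1 had the AP-1 motif TGACTCA (4.46%). These are letter matches only.

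Lamb3, which with Lama3 belongs to the laminin of epidermal anchoring, was a perineurial gene at P60. Lamb3 went from 3.25, 3.95 and 3.95 to 37.4, 30.6 and 27.4 CPM there (log2 change 3.09, SE 0.23, adjusted p = 2.86e-07) and stayed under 7 CPM in all other classes. Its alpha partner Lama3 was at 0.310 CPM in perineurial cells at P60. Lamc1, the gamma chain of most laminins, changed like Lama2 in Schwann and endoneurial cells: Schwann cells held 224, 215 and 214 CPM in the P1 libraries and 101, 111 and 167 CPM in the P60 libraries and fell (log2 change -0.79, SE 0.16, adjusted p = 6.43e-04), and endoneurial cells held 185, 178 and 198 CPM in the P1 libraries and 392, 401 and 500.2 CPM in the P60 libraries and rose (log2 change 1.28, SE 0.12, adjusted p = 7.05e-07). At P1 Schwann cells were highest for Lamc1 and at P60 endoneurial cells were, with no overlap with the next class. Lamc1 also rose in epineurial cells, from 76.1, 66.8 and 83.8 to 194, 193 and 278 CPM (log2 change 1.51, SE 0.17, adjusted p = 2.09e-05), and in perineurial cells (0.67 ± 0.14), and fell in endothelial cells, from 121 to 56.9 CPM (log2 change -1.09, SE 0.17, adjusted p = 3.02e-04). Its mural increase, from 80.2, 78.1 and 82.1 to 109, 90.1 and 123 CPM (log2 change 0.55, SE 0.19, adjusted p = 0.0384), was lost whenever any library was left out but P60 replicate 2 (adjusted p = 0.0528 to 0.136) and by DESeq2. Lamc3, a gamma chain known from vessels, was a mural gene (16.1 ± 2.21 and 17.4 ± 1.89 CPM), did not pass the test (log2 change 0.22, SE 0.27, adjusted p = 0.594) and was under 5 CPM elsewhere.

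The nidogens, which bridge laminin and type IV collagen, changed differently from each other. Nid2 fell in 6 of 7 classes, most in the vessel wall: endothelial cells held 87.8, 101 and 93.1 CPM in the P1 libraries and 10.1, 6.64 and 8.03 CPM in the P60 libraries (log2 change -3.51, SE 0.18, adjusted p = 2.29e-08) and mural cells 61.7, 50.1 and 57.5 CPM in the P1 libraries and 2.72, 9.48 and 5.76 CPM in the P60 libraries (log2 change -3.06, SE 0.32, adjusted p = 4.33e-05). Schwann cells, from 157, 139 and 148 to 48.5, 62.0 and 68.5 CPM (log2 change -1.35, SE 0.19, adjusted p = 1.92e-05), and perineurial cells, from 153, 155 and 143 to 71.5, 64.6 and 105 CPM (log2 change -0.91, SE 0.16, adjusted p = 4.84e-04), held the highest levels at both ages and overlapped each other. It also fell in endoneurial (-0.72) and immune cells (-0.85), the last call being lost without P1 replicate 2 (adjusted p = 0.0510) or P60 replicate 2 (0.0562), and the epineurial difference did not pass (log2 change -0.52, SE 0.23, adjusted p = 0.0998). Nid1, by contrast, rose in the 3 fibroblast classes and fell in Schwann, endothelial and mural cells. Endoneurial cells held 188, 169 and 183 CPM in the P1 libraries and 651, 617 and 909 CPM in the P60 libraries (log2 change 2.08, SE 0.13, adjusted p = 2.33e-08) and epineurial cells 407, 399.7 and 434 CPM in the P1 libraries and 570.3, 573 and 888 CPM in the P60 libraries (log2 change 0.67, SE 0.15, adjusted p = 0.00464). Epineurial cells were highest at P1, and at P60 the libraries of both classes overlapped, with replicate 3 highest in each. Perineurial Nid1 rose from 253 to 365 CPM (0.53 ± 0.14). Endothelial Nid1 went from 92.7, 81.6 and 109 to 27.1, 37.2 and 53.3 CPM (log2 change -1.25, SE 0.21, adjusted p = 4.88e-04), mural Nid1 from 151 to 72.4 CPM (-0.91 ± 0.19), and Schwann Nid1 from 175 to 121 CPM (log2 change -0.54, SE 0.16, adjusted p = 0.0114), a call lost without any of the P1 libraries (adjusted p = 0.0940 to 0.124).

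Perlecan (Hspg2), the large heparan sulfate proteoglycan of basal laminae, was highest in endothelial and Schwann cells at P1 and in endoneurial cells at P60. At P1 endothelial cells held 446, 474 and 451 CPM and Schwann cells 429, 447 and 423 CPM, which overlapped; at P60 they held 128, 140.3 and 145 and 282, 213 and 342 CPM. Hspg2 fell in both (log2 change -1.72, SE 0.11, adjusted p = 1.35e-07; log2 change -0.67, SE 0.14, adjusted p = 8.68e-04). Endoneurial cells held 177, 183 and 193 CPM in the P1 libraries and 509.8, 494 and 549 CPM in the P60 libraries (log2 change 1.57, SE 0.11, adjusted p = 3.69e-08) and stood above every other class at P60. Hspg2 also fell in perineurial cells, from 126, 134 and 131 to 66.6, 69.0 and 72.5 CPM (log2 change -0.91, SE 0.11, adjusted p = 2.20e-05), and in immune cells, from 30.1, 40.1 and 29.8 to 16.1, 13.4 and 13.1 CPM (log2 change -1.16, SE 0.21, adjusted p = 0.00124), and did not pass in epineurial (-0.03 ± 0.12) or mural cells (0.37 ± 0.22). Agrin was an endothelial gene at P1, with 62.0, 65.7 and 55.6 CPM in the P1 libraries and 33.1, 29.1 and 46.3 CPM in the P60 libraries, and fell there (log2 change -0.75, SE 0.18, adjusted p = 0.00552). It rose in Schwann cells from 14.2, 11.4 and 12.6 to 22.1, 31.0 and 30.1 CPM (log2 change 1.07, SE 0.33, adjusted p = 0.0176), so that the P60 libraries of both classes overlapped; the Schwann call was lost without P60 replicate 2 (adjusted p = 0.0987) or 3 (0.146). All 8 endothelial markers were seen in Schwann cells, with a sum of 48.1 to 54.0 CPM at P1 and 146 to 492 CPM at P60 (0.634% and 2.78% of the endothelial level); their part in the agrin change was not tested.

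Of the laminin receptors, Itgb4 and Itga6, which pair into the integrin of hemidesmosomes and of mature Schwann cells, rose together in perineurial cells. Itgb4 was at 15.9, 10.7 and 14.5 CPM in P1 and 784, 795 and 1024 CPM in P60 perineurial libraries (log2 change 5.98, SE 0.17, adjusted p = 1.90e-10), the largest change of a member above 20 CPM in that class. Itga6 was at 94.6, 105 and 113 and 464, 449 and 705 CPM (log2 change 2.37, SE 0.17, adjusted p = 2.05e-07), with P60 replicate 3 highest. Both genes were then above every other class. In Schwann cells Itgb4 rose from 25.4, 22.5 and 22.8 to 97.1, 137 and 222 CPM (log2 change 2.71, SE 0.23, adjusted p = 6.36e-08), while Itga6, the alpha subunit that Itgb1 also uses, was at 350.3, 356 and 352 CPM in the P1 libraries and 300.1, 244 and 353 CPM in the P60 libraries and did not pass the test (log2 change -0.28, SE 0.13, adjusted p = 0.0850). Schwann cells had held the most of both at P1. Endothelial cells gained Itgb4, from 12.5, 5.52 and 11.6 to 39.6, 45.6 and 40.9 CPM (log2 change 2.11, SE 0.25, adjusted p = 2.59e-05), and their Itga6 did not pass (184 ± 5.43 and 181 ± 35.0 CPM, log2 change -0.01, SE 0.14, adjusted p = 0.958).

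Calls of Itgb4 in endoneurial (3.17), epineurial (2.65) and immune cells (3.67) sat at a low and like level. Endoneurial, epineurial and immune cells held 11.8 to 12.9 CPM at P60, 1.35% to 1.49% of the perineurial level, and all 9 perineurial markers were seen in each of them at P60, at 1.75% to 2.85% of the perineurial sum. Itga7, the alpha subunit of the muscle laminin receptor, at 5.53, 6.55 and 6.31 CPM in endoneurial, endothelial and immune cells at P60 stood at 2.07% to 2.45% of the perineurial level, and passed in each; the endothelial call was lost without cells over 10% mitochondrial UMIs (adjusted p = 0.0501). Whether free perineurial RNA made up these values was not tested.

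Itga7 itself was a mural gene at P1 and a perineurial and mural one at P60. Mural cells held 168, 160.1 and 184 CPM in the P1 libraries and 179.8, 148 and 173 CPM in the P60 libraries and did not pass (log2 change 0.09, SE 0.15, adjusted p = 0.686). Perineurial cells held 20.9, 17.0 and 22.7 CPM in the P1 libraries and 287, 253 and 261 CPM in the P60 libraries (log2 change 3.72, SE 0.14, adjusted p = 1.15e-09), which put them above the mural libraries at P60. All 8 mural markers were seen in perineurial cells, with a sum of 318 to 366 CPM at P1 and 2798 to 3464 CPM at P60, 13.5% of the mural sum; their part in the perineurial Itga7 level was not tested. Schwann cells were next, at 37.5 and 51.8 CPM (not passing, log2 change 0.38, SE 0.23, adjusted p = 0.223). Itga6 fell in mural cells from 50.9, 49.2 and 40.2 to 8.17, 16.6 and 15.4 CPM (log2 change -1.62, SE 0.29, adjusted p = 0.00122) and in immune cells from 75.1, 71.3 and 70.9 to 12.1, 12.2 and 18.4 CPM (log2 change -2.24, SE 0.18, adjusted p = 3.34e-06). Itga3, an alpha subunit of epithelial laminin receptors, rose in endothelial cells from 4.88, 3.68 and 1.94 to 21.8, 28.0 and 27.0 CPM (log2 change 2.88, SE 0.30, adjusted p = 1.12e-05), and in perineurial cells at levels under 10 CPM (1.18). In mural cells Itga3 went from 3 UMIs over the P1 libraries to 42 over the P60 libraries, or 13.6-fold per UMI counted (95% interval 4.35 to 68.7, counting error only).

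**Figure D5:**
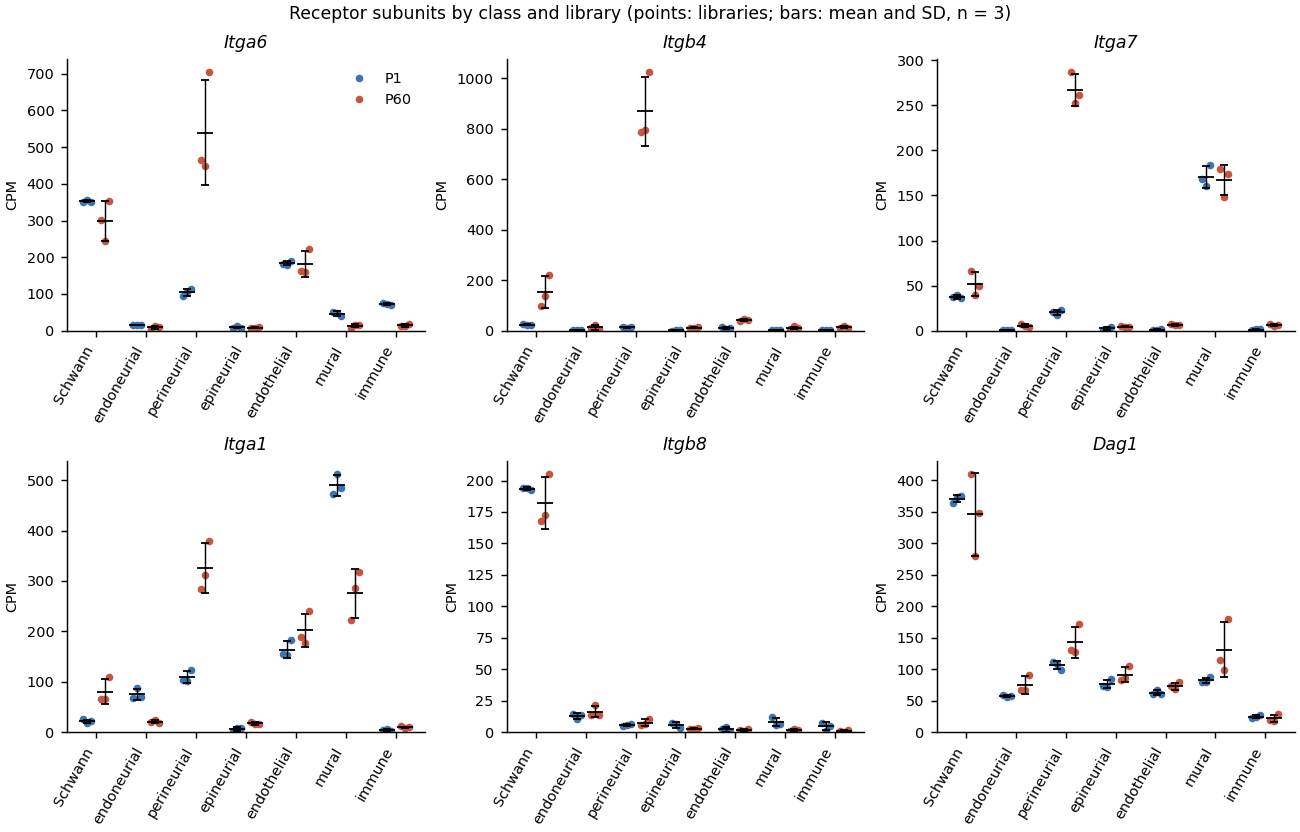
CPM of 6 receptor genes in each library (points), with mean and SD (bars, n = 3), for 7 classes at P1 (blue) and P60 (red). Itga6, Itgb4 and Itga7 stand highest in perineurial cells at P60, and Itgb8 and Dag1 in Schwann cells at both ages.

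Dystroglycan was led by Schwann cells at both ages. Dag1 was at 364, 373 and 375 CPM in the P1 libraries and 410.4, 279 and 348 CPM in the P60 libraries, and the difference did not pass (log2 change -0.18, SE 0.12, adjusted p = 0.285). The next class, perineurial cells, held 112, 108 and 99.5 and 129.9, 127 and 171 CPM. Dag1 rose there (log2 change 0.42, SE 0.13, adjusted p = 0.0175), in endoneurial cells, from 57.8 to 74.9 CPM (log2 change 0.45, SE 0.14, adjusted p = 0.0155), and in mural cells, from 80.2, 80.0 and 87.6 to 114, 98.4 and 180.4 CPM (log2 change 0.82, SE 0.25, adjusted p = 0.0239), where P60 replicate 3 lay above the others. Each of these 3 calls was small and not firm: the mural and endoneurial ones were lost without any of the P1 libraries (adjusted p = 0.0781 to 0.0915 and 0.0535 to 0.0660), and the perineurial one without P1 replicate 2 (0.0568) or 3 (0.0913).

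Itgb1, the beta subunit shared by most laminin and collagen receptors, was the broadest integrin gene and rose nowhere. Mural cells held 734, 757 and 707 CPM in the P1 libraries and 589.8, 549 and 649.9 CPM in the P60 libraries, above every other class at both ages, and did not pass (log2 change -0.18, SE 0.13, adjusted p = 0.334). Itgb1 fell in endothelial (449.7 to 266 CPM, log2 change -0.75, SE 0.10, adjusted p = 8.58e-05), epineurial (303, 284 and 304 to 225, 216 and 195 CPM, log2 change -0.52, SE 0.12, adjusted p = 0.00464), Schwann (-0.47) and endoneurial cells (354, 358 and 334 to 285, 268 and 242 CPM, log2 change -0.31, SE 0.12, adjusted p = 0.0435). The Schwann call was lost without any P1 library (adjusted p = 0.104 to 0.153) and the endoneurial one without any P1 library or P60 replicate 2 (0.0659 to 0.140).

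Itga1, a collagen and laminin receptor subunit, changed in opposite directions in neighbouring classes. Mural cells held 472, 513 and 484 CPM in the P1 libraries and 222, 286 and 319 CPM in the P60 libraries and fell (log2 change -0.70, SE 0.17, adjusted p = 0.00709), and endoneurial cells held 68.6, 87.3 and 69.1 CPM in the P1 libraries and 20.1, 23.6 and 19.0 CPM in the P60 libraries and fell (log2 change -1.76, SE 0.19, adjusted p = 3.82e-06). Perineurial cells held 103, 101 and 124 CPM in the P1 libraries and 284, 312 and 379.9 CPM in the P60 libraries and rose (log2 change 1.57, SE 0.13, adjusted p = 9.40e-07), so that at P60 they overlapped the mural libraries. The part of mural transcripts, whose markers stood at 13.5% of the mural sum in P60 perineurial cells, was not tested. Schwann cells rose from 25.4, 18.9 and 21.4 to 66.2, 66.5 and 109.6 CPM (log2 change 1.89, SE 0.25, adjusted p = 1.50e-05), with P60 replicate 3 highest, and endothelial cells (164 ± 16.5 and 202 ± 33.2 CPM) did not pass (log2 change 0.31, SE 0.14, adjusted p = 0.0939). Epineurial (1.34) and immune cells (1.17) rose at levels under 18 CPM; the immune call was lost without P1 replicate 1 (adjusted p = 0.0617) or 3 (0.0970), P60 replicate 1 (0.0675) or 2 (0.0503). Itga2, the other main collagen receptor subunit, was led by endothelial cells at P1: 42.5, 43.0 and 51.1 CPM in the P1 libraries and 1.21, 1.73 and 2.55 CPM in the P60 libraries (log2 change -4.57, SE 0.27, adjusted p = 6.38e-08). It rose in Schwann cells, from 12.5, 8.70 and 9.14 to 22.1, 22.2 and 32.9 CPM (log2 change 1.34, SE 0.39, adjusted p = 0.0109), which were then the class with most, and in epineurial cells, from 3.35 to 12.1 CPM (1.71). The Schwann call was lost without P60 replicate 3 (adjusted p = 0.188) and the epineurial one without P1 replicate 1 (0.0714) or 2 (0.0699). Itga11, the fibroblast collagen receptor subunit, passed 3 CPM in epineurial and endoneurial cells alone: the former rose from 4.06, 5.81 and 5.34 to 52.3, 50.9 and 75.4 CPM (log2 change 3.50, SE 0.28, adjusted p = 1.08e-06) and the latter from 0.401 to 13.9 CPM (log2 change 5.04, SE 0.42, adjusted p = 3.06e-07).

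The alpha subunit Itgav pairs with Itgb1, Itgb3, Itgb5, Itgb6 or Itgb8 in receptors for fibronectin, vitronectin and latent TGF-beta. Schwann cells raised it from 27.7, 33.1 and 26.8 to 97.1, 79.8 and 192 CPM (log2 change 2.11, SE 0.25, adjusted p = 4.18e-06), with P60 replicate 3 at the top, and none of the other 6 classes passed (changes from -0.56 to 0.12). Endoneurial cells held most at P1 (55.3, 57.5 and 62.9 CPM in the P1 libraries and 49.0, 52.7 and 81.3 CPM in the P60 libraries) and overlapped Schwann cells at P60. Of its partners, Itgb8 was a Schwann gene at both ages, with 194, 194 and 192 CPM in the P1 libraries and 168, 173 and 205 CPM in the P60 libraries (not passing, log2 change -0.14, SE 0.13, adjusted p = 0.417), and the next class, endoneurial cells, held 13.0 and 16.4 CPM. Itgb5 was led by epineurial cells (103, 106 and 107 CPM in the P1 libraries and 116, 115 and 126 CPM in the P60 libraries; not passing, log2 change 0.14, SE 0.13, adjusted p = 0.422), rose in perineurial cells from 8.43 to 62.3 CPM (log2 change 2.88, SE 0.18, adjusted p = 5.83e-08) and in Schwann cells from 9.01, 5.997 and 9.28 to 70.6, 22.2 and 57.5 CPM (log2 change 2.58, SE 0.37, adjusted p = 2.83e-05), and fell in immune cells from 85.0, 80.6 and 86.5 to 24.9, 29.0 and 53.3 CPM (log2 change -1.13, SE 0.22, adjusted p = 0.00180). Schwann P60 replicate 2 was the low one, though above every P1 library. It also rose in endoneurial cells, from 1.52 to 10.1 CPM (2.69), and in endothelial cells, from 6.55 to 11.7 CPM (0.84), a call lost without any P1 library or P60 replicate 1 (adjusted p = 0.0543 to 0.156).

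Itgb3, the vitronectin receptor subunit, fell in endoneurial, perineurial and Schwann cells. Endoneurial cells led at P1 and held 83.7, 85.7 and 94.0 CPM in the P1 libraries and 25.4, 26.9 and 34.8 CPM in the P60 libraries (log2 change -1.52, SE 0.16, adjusted p = 2.20e-06). Perineurial cells went from 52.0, 57.7 and 59.3 to 6.10, 4.28 and 8.84 CPM (log2 change -3.18, SE 0.22, adjusted p = 1.61e-07) and Schwann cells from 54.6, 56.8 and 62.0 to 8.83, 26.6 and 41.1 CPM (log2 change -1.12, SE 0.30, adjusted p = 0.00748), the P60 Schwann libraries differing widely from each other. Epineurial cells (45.7, 43.6 and 65.5 CPM in the P1 libraries and 38.7, 37.5 and 55.4 CPM in the P60 libraries) did not pass (log2 change -0.29, SE 0.20, adjusted p = 0.304) and held the most at P60. In endothelial cells Itgb3 rose from 4.17 to 13.1 CPM (log2 change 1.66, SE 0.34, adjusted p = 0.00185). Without cells over 10% mitochondrial UMIs, and with the rest clustered again, the change was 0.77 (adjusted p = 0.0645). The P1 endothelial class then held 184, 239 and 208 cells, against 166, 232 and 193 before, so its membership had also changed. Itgb6, its epithelial relative, stayed under 1 CPM in every class.

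Among receptors for fibronectin and related ligands, Itga5, the classical fibronectin receptor subunit, was led by endothelial cells (94.1, 84.7 and 86.0 CPM in the P1 libraries and 59.4, 54.0 and 60.6 CPM in the P60 libraries) and fell there (log2 change -0.60, SE 0.13, adjusted p = 0.00283). It fell in perineurial cells, from 26.4, 27.3 and 22.1 to 8.83, 8.02 and 6.63 CPM (log2 change -1.67, SE 0.19, adjusted p = 1.18e-05), in epineurial cells, from 40.6, 41.6 and 41.2 to 20.1, 20.4 and 22.2 CPM (log2 change -1.01, SE 0.16, adjusted p = 4.11e-04), and in endoneurial cells, from 33.5, 30.9 and 33.2 to 27.2, 19.3 and 16.9 CPM (log2 change -0.52, SE 0.20, adjusted p = 0.0483). The endoneurial call was lost without any library but P60 replicate 1 (adjusted p = 0.0756 to 0.165) and by DESeq2. In mural cells 1 library set the value: Itga5 was at 13.0, 9.64 and 10.0 CPM in the P1 libraries and 13.6, 8.30 and 76.8 CPM in the P60 libraries (not passing, log2 change 1.93, SE 0.71, adjusted p = 0.0575). Itga8, which binds nephronectin, was a mural gene, with 33.6, 16.4 and 24.6 CPM in the P1 libraries and 68.1, 49.8 and 148 CPM in the P60 libraries (log2 change 2.04, SE 0.43, adjusted p = 0.00373), and was under 3 CPM elsewhere. Its increase depended on the kind of mural cell: in vascular smooth muscle cells alone the change was 2.00 (adjusted p = 0.00537) and in pericytes alone -0.45 (0.484), and smooth muscle made up 152 of 601 mural cells at P1 and 531 of 843 at P60. Itga9, a tenascin and osteopontin receptor subunit, rose in perineurial cells, which held most at P60, from 17.3, 24.5 and 19.8 to 55.1, 54.7 and 74.2 CPM (log2 change 1.58, SE 0.18, adjusted p = 1.22e-05). Itga4, a fibronectin and Vcam1 receptor subunit, rose in immune cells from 43.8, 46.7 and 41.5 to 72.0, 76.1 and 75.6 CPM (log2 change 0.84, SE 0.14, adjusted p = 5.88e-04) and fell in mural cells from 36.8, 43.4 and 38.3 to 15.0, 13.0 and 17.3 CPM (log2 change -1.22, SE 0.25, adjusted p = 0.00331); both classes overlapped at P1.

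Of the leukocyte integrins, Itgb2, Itgam and Itgax were immune genes and rose with age there. Itgb2, the beta subunit common to leukocyte integrins, was at 77.3, 76.6 and 67.4 CPM in the P1 libraries and 150.0, 146 and 147 CPM in the P60 libraries (log2 change 1.08, SE 0.13, adjusted p = 6.59e-05). Its partner Itgam, the macrophage subunit, was at 60.5, 63.8 and 60.5 CPM in the P1 libraries and 127, 118 and 193 CPM in the P60 libraries (log2 change 1.32, SE 0.18, adjusted p = 1.25e-04), with P60 replicate 3 highest; the overlapping second entry reached 4.77 CPM at P60. Itgax, known from dendritic cells and macrophages, rose from 7.53 to 19.8 CPM (log2 change 1.47, SE 0.25, adjusted p = 6.61e-04), Itgae fell from 6.51 to 1.42 CPM (log2 change -1.99, SE 0.53, adjusted p = 0.0114), and Itgal, the lymphocyte subunit, was at 22.8, 13.2 and 13.4 CPM in the P1 libraries and 24.9, 18.0 and 18.9 CPM in the P60 libraries and did not pass (log2 change 0.39, SE 0.26, adjusted p = 0.267). Apart from Itgae, which averaged 11.2 CPM in P60 Schwann cells, these genes were under 2 CPM in the other 6 classes at both ages. Itgb7, the partner of Itga4 and Itgae in lymphocyte homing, was at 23.2, 24.2 and 23.3 CPM in the P1 libraries and 82.7, 93.5 and 62.5 CPM in the P60 libraries in immune cells (log2 change 1.83, SE 0.19, adjusted p = 1.81e-05), and it was also found in the sheath. Perineurial cells held 1.81, 1.98 and 0.989 CPM in the P1 libraries and 58.0, 58.3 and 45.7 CPM in the P60 libraries (log2 change 5.09, SE 0.26, adjusted p = 1.40e-08). Epineurial cells had 0 Itgb7 UMIs of 3330242 at P1 and 690 of 24334357 at P60, at least 31.5-fold higher, or 28.2, 25.6 and 32.5 CPM. At P60 Itga4 was at 0.904 and 0.827 CPM and Itgae at 0 and 0.486 CPM in perineurial and epineurial cells, and all 7 immune markers were seen in each, with a sum of 33.6 to 44.1 and 31.4 to 44.3 CPM or 0.468% and 0.460% of the immune sum. Itgb7 stood at 67.8% and 36.1% of the immune level, and the part of immune transcripts in it was not tested. Altogether 9 of the 43 entries stayed under 20 CPM in every class and age: Itga10 (highest mean 11.4 CPM, in mural cells at P60), Itga2b (13.2, epineurial, P1), Itgad (0.162), Itgae (11.2, Schwann, P60), Itgax (19.8, immune, P60), the second Itgam entry (4.77), Itgb6 (0.363), Lama1 (0.641) and Lamc3 (17.4).

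Within Schwann cells the receptors split by subtype at P60, where 154 cells were named myelinating and 161 non-myelinating or immature. Itgb4 was at 209.7, 305 and 326 CPM in non-myelinating and 45.1, 47.6 and 105 CPM in myelinating cells, Itga1 at 209.7, 139.8 and 181 against 0, 27.2 and 29.1 CPM, and Itga2 at 55.9, 63.5 and 62.2 against 6.45, 0 and 0 CPM. The libraries of the subtypes did not overlap for these 3 genes, and the share of all genes without overlap was not computed. The non-myelinating libraries held 29, 31 and 101 cells and 71519, 78710 and 192959 UMIs. The myelinating ones held 41, 52 and 61 cells and 155097, 146967 and 172008 UMIs. At these depths the Itga2 values and the low Itga1 values rest on few UMIs. Dag1 ran the other way, at 279.6, 165 and 181 CPM in non-myelinating and 471, 340.2 and 535 CPM in myelinating cells, also without overlap. Itga6 overlapped (322, 229 and 347 and 290.1, 252 and 360.4 CPM), as did Lamb1 (238, 102 and 218 and 181, 102 and 186 CPM). Nid2 was at 97.9, 114 and 119 CPM in non-myelinating and 25.8, 34.0 and 11.6 CPM in myelinating cells, and Nid1 at 224, 191 and 218 and 38.7, 61.2 and 93.0 CPM. At P1 the same order held without overlap for Itgb4 (40.3, 53.9 and 47.1 against 16.7, 10.4 and 11.7 CPM), Dag1 (273, 286 and 284 against 464, 491 and 475 CPM) and Nid2 (252, 229.9 and 222 against 81.8, 78.4 and 73.8 CPM). Itgb4 rose with age in myelinating cells alone (2.40, adjusted p = 2.18e-04) and in non-myelinating or immature cells alone (2.62, 6.24e-10), and Hspg2 fell in the former (-1.41, 3.46e-06) and did not pass in the latter (0.07, 0.795). The subtypes come from the same suspensions, and cells were clustered on their other genes, so their difference is a description. Fibroblast markers were not summed per subtype, and the part of fibroblast transcripts in the Nid1 and Nid2 values was not tested.

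Among mural cells, pericytes and vascular smooth muscle cells held different laminins at P60. Lama5 was at 104, 74.4 and 140.0 CPM in smooth muscle and 17.2, 23.4 and 35.8 CPM in pericytes, and Nid1 at 6.76, 14.4 and 42.7 against 152, 119.6 and 215 CPM. Itga8 was at 108, 88.7 and 190.3 CPM in smooth muscle against 6.89, 11.7 and 23.0 CPM in pericytes, and Lamc3 at 11.3, 0 and 5.97 against 31.0, 35.2 and 43.4 CPM. None of these 4 genes overlapped between the subtypes, which come from the same suspensions. The share of all genes without overlap was not computed, so this is a description of the named genes. The mural fall of Nid1 (-0.91) was -0.07 in pericytes alone (adjusted p = 0.841) and -1.77 in smooth muscle alone (0.0111), and that of Lama2 was -0.52 (0.157) in pericytes alone.

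Partners of these genes were counted over whole lists. Of the dystrophin-glycoprotein complex, 14 genes listed, 8 of 12 tested rose in Schwann cells and 0 fell, where 19.1% and 19.2% of all genes did (list median 1.55), among them Drp2, the partner of periaxin and dystroglycan in Schwann cells, from 10.8 to 106 CPM (log2 change 3.21, SE 0.21, adjusted p = 3.83e-09), Dtna, a dystrobrevin (2.50), and Sgcd, a sarcoglycan (2.17). In mural cells 7 of 10 rose (17.9% of all genes), among them Dtna, from 5.76 to 67.0 CPM (3.75). Endothelial cells had 4 of 9 higher and 2 lower (20.4% and 18.8% of all genes). Endoneurial cells had 3 of 8 higher and 1 lower (23.9% and 22.6%), and immune cells 3 of 5 higher (20.4%). In perineurial cells 7 of 10 rose and 2 fell (28.4% and 26.7% of all genes), with Dmd, dystrophin, from 9.15 to 49.1 CPM (log2 change 2.42, SE 0.22, adjusted p = 1.63e-06) and Utrn, utrophin, from 91.7 to 296 CPM (1.69), and 0 of 10 passed in epineurial cells (18.1% of all genes rose and 16.3% fell). Dystroglycan glycosylation enzymes, 11 listed, gave 2 of 11 higher in Schwann cells, near the 19.1% of all genes, among them B4gat1 (0.92), and in perineurial cells 6 of 11 rose and 1 fell (28.4% and 26.7% of all genes).

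The basement membrane collagens, 9 genes listed with Sparc, changed with the class: 5 of 5 tested fell in endothelial cells (18.8% of all genes), among them Col4a1, from 1841 to 265 CPM (log2 change -2.79, SE 0.12, adjusted p = 8.68e-09), and Col4a2 (-2.37). In endoneurial cells 4 of 7 rose and 1 fell (23.9% and 22.6% of all genes), with Col15a1, which sits on the outer face of basal laminae, from 109 to 1695 CPM (log2 change 4.03, SE 0.15, adjusted p = 8.83e-11). In perineurial cells 3 of 8 rose and 3 fell, not far from the shares of all genes there (28.4% and 26.7%): Col4a4 went from 4.89 to 114 CPM (4.53) with its chain partner Col4a3 (6.33), and Col18a1, the endostatin precursor, from 262 to 8.91 CPM (-4.89). Epineurial cells had 4 of 7 higher and 1 lower (18.1% and 16.3% of all genes), mural cells 1 of 6 higher and 2 lower (17.9% and 15.9%), Schwann cells 1 of 7 each way (19.1% and 19.2%), and immune cells 2 of 5 lower (16.9%). Of 7 other laminin receptors, Bcam, which binds Lama5-containing laminin, rose in perineurial cells from 44.5 to 459 CPM (log2 change 3.37, SE 0.18, adjusted p = 2.09e-08) and in mural (1.41), endothelial (0.92), immune (3.46), epineurial (2.10) and Schwann cells (0.62), and the syndecan Sdc4 rose in perineurial (2.89), mural (2.45), endoneurial (1.37), Schwann (1.29) and epineurial cells (1.02). At P60 immune and epineurial cells had 1.75% and 2.40% of the perineurial marker sum. Whether free perineurial RNA made up part of the Bcam changes outside perineurial cells was not tested. Rpsa, the laminin-binding ribosomal protein, fell in all 7 classes (-1.98 to -0.40). Over this list, 4 of 6 tested rose and 2 fell in perineurial cells (28.4% and 26.7% of all genes). The counts were 4 of 7 and 1 in endothelial (20.4% and 18.8%), 4 of 7 and 2 in mural (17.9% and 15.9%) and 4 of 6 and 1 in immune cells (20.4% and 16.9%). They were 3 of 6 and 2 in endoneurial (23.9% and 22.6%), 3 of 7 and 1 in Schwann (19.1% and 19.2%) and 2 of 6 and 2 in epineurial cells (18.1% and 16.3%). Of 14 adhesion plaque genes, which link integrins to actin, 5 of 11 rose and 3 fell in perineurial cells (28.4% and 26.7% of all genes), 6 of 12 rose and 3 fell in immune cells (20.4% and 16.9%), and 1 of 10 rose and 5 fell in endoneurial cells (23.9% and 22.6%). In the other classes the counts were 4 of 11 and 2 in endothelial (20.4% and 18.8%), 2 of 10 and 2 in Schwann (19.1% and 19.2%) and in mural (17.9% and 15.9%), and 1 of 10 and 1 in epineurial cells (18.1% and 16.3%), several of them near the shares of all genes. Lims2, a partner of Ilk, rose in all 7 classes, from 13.1 to 183 CPM in perineurial cells (log2 change 3.80, SE 0.20, adjusted p = 1.47e-08). The part of perineurial RNA in its other rises was not tested.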

How the data were processed

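Single-cell suspensions of sciatic nerve were profiled in 6 libraries with the 10x 3′ kit v2. The deposited values are UMI counts per gene and cell, made by the authors with Cell Ranger 2.0.2 and its cell calling; the submitters' processing notes name GRCm38.p5 and the study's methods a human build name, so coordinates are given only for the GRCm38.p6 sequences printed. No per-sample column was left unused.

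Cells with 500 to 5000 genes were kept and clustered per age with Seurat 5.3.0 (total 10000, 10 components, 30 neighbours, resolution 0.5 at P1 and 0.4 at P60, 0.3 for sub-clusters), leaving the 43 members out of the variable genes and markers, since 24 of them at P1 and 18 at P60 were variable. Classes were named from at least 3 markers; sub-clusters with markers of another class, mixed clusters and lymphatic endothelium were set aside. Scrublet scores were used as an alternative only and no doublets were removed. UMI counts were summed per library and class (at least 10 cells) and tested with edgeR 4.0.16 (R 4.3.3, TMM, filterByExpr, quasi-likelihood test, Benjamini-Hochberg over all genes of the class, threshold 0.05). Differences between classes were estimated as class by age terms in 1 fit over 42 columns, 7 classes from each of 6 libraries. That fit held the library as a block and was read for members called in opposite directions and differing by over 1. Fits were tested on simulated data. Members, lists and markers were chosen with earlier results of these data known. Members are named, except that a few results are not reported here; per-library values are given for the class with the highest level and for up to 5 called members a direction and class above 20 CPM at either age.

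Same-numbered P1 and P60 libraries did not deviate together (correlations 0.027, 0.094 and 0.039), so the numbers were not used to pair them. Alternatives were DESeq2 1.42.0, library size alone, no filter, a replicate block, each library left out, another seed, members kept in the clustering, a clustering total of 100000, cells over 10% mitochondrial or with the highest Scrublet scores or 10 or more Dcn UMIs left out, and 50 cells per library. Where cells over 10% mitochondrial UMIs or with the highest Scrublet scores were left out, the rest were clustered again, so class membership also changed. Intervals and floors (3 UMIs) cover counting error only.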

Additional observations from a re-analysis of the deposited data

Results flagged for a closer look

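The age changes of 13 members went in opposite directions in different classes, and the difference between the age changes was estimated in edgeR's fit over all classes. The pair given for each member is the class with its largest called rise and the class with its largest called fall. Since pairs were chosen for opposite calls on the same counts, passing a test of the difference was largely set by that choice, and no p is given. The 7 classes of a library share a suspension, and the fit held a term for each library. Beyond that term it treats the classes as independent.

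Among laminin chains, Lamb1 changed by 4.32 more in endoneurial than in perineurial cells (log2, SE 0.16). The difference was 3.45 (SE 0.39) for Lama2 between endoneurial and immune cells, 2.63 (SE 0.14) for Lamc1 between epineurial and endothelial cells and 1.30 (SE 0.13) for Lama4 between epineurial and endothelial cells. In each, the first class rose and the second fell. Of the linkers, endoneurial and endothelial cells differed by 3.25 (SE 0.13) for Nid1 and by 3.19 (SE 0.12) for Hspg2, while Agrn rose in Schwann and fell in endothelial cells, a difference of 1.54 (SE 0.36); the Schwann call was lost without P60 replicate 2 (adjusted p = 0.0987) or 3 (0.146).

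Among integrins, Itga2 differed by 6.33 (SE 0.46) between epineurial cells, where it rose at low levels, and endothelial cells, where it fell. Itga1 differed by 3.49 (SE 0.34) between Schwann and endoneurial cells, Itga4 by 1.99 (SE 0.27) between immune and mural cells, and Itga6 by 4.75 (SE 0.16) between perineurial and immune cells. Itgb5 differed by 4.14 (SE 0.23) between perineurial and immune cells. Itgb3 differed by 4.80 (SE 0.33) between endothelial cells, whose own rise was lost under another mitochondrial limit, and perineurial cells, where it fell.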

How the results depend on the processing

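Of 123 refits of the age comparisons, 112 gave a count of called members within 1.5 times the reported one. Of 1141 refitted values of the 66 named changes, 1091 kept their direction and side of the threshold, 49 kept the direction only and 1 turned: Itga8 in mural cells, -0.45 (adjusted p = 0.484) with pericytes only. Leaving out each library in turn gave 11 to 18 calls in Schwann, 12 to 17 in endoneurial, 20 to 22 in perineurial and 13 to 16 in epineurial cells, then 17 to 18 for endothelium, 10 to 14 for mural and 15 to 18 for immune cells. With 50 cells per library the calls numbered 7 in Schwann (5 higher and 2 lower), 7 in endoneurial, 7 in epineurial, 8 in endothelial (0 higher and 8 lower), 6 in mural and 5 in immune cells (4 higher and 1 lower), from fewer cells and fewer members past the count filter. Subtypes (chosen after seeing the data), which also hold fewer cells, gave 11 in myelinating (4 higher and 7 lower) and 11 in non-myelinating or immature Schwann cells, 6 in pericytes (1 higher and 5 lower) and 6 in vascular smooth muscle. The Schwann split of 8 higher and 9 lower became 10 higher and 7 lower with a clustering total of 100000 and 14 higher and 7 lower with sub-clusters holding markers of another class kept (chosen after seeing the data); the cause was not tested. The epineurial split of 11 higher and 3 lower became 13 higher and 6 lower without cells over 10% mitochondrial UMIs. The rest were clustered again there, and the P1 epineurial class held 286, 339 and 329 cells, against 152, 161 and 182 before. It held 273, 316 and 318 cells without the highest Scrublet scores, and 109, 118 and 142 with members kept in the clustering. Class membership and the filter cannot be told apart in that split. The mural split of 5 higher and 7 lower became 9 higher and 8 lower with no count filter. Under library size alone, the median of all genes shifted by -0.12 in mural cells and by under 0.1 in the other classes.

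In the fit with a replicate block, 16 members were called in Schwann and 14 in endoneurial cells. It lost Schwann Lama4 (adjusted p = 0.0529) and endoneurial Itga5 (0.0611) and Itgb1 (0.0589), and no other call of a member. The libraries share only a number. The P60 Schwann libraries held 225677 to 364967 UMIs, and smaller differences were not detectable there at this depth.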

Other observations

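The 34 lymphatic endothelial cells at P1 and 117 at P60, set aside from the endothelial class, differed from it in several members at P60. They held Itga9 at 161, 84.5 and 153 CPM against 16.2, 24.5 and 23.7 CPM in the endothelial class, and Itgb3 at 101, 67.6 and 108 against 10.9, 11.8 and 16.4 CPM. Lama4 was at 256, 287 and 292 CPM against 111, 104 and 126 CPM, Nid1 at 95.2, 129 and 112 against 27.1, 37.2 and 53.3 CPM and Itga6 at 47.6, 50.7 and 112 against 163, 159 and 222 CPM. Neither set of libraries overlapped the other for any of these 5 genes, and the share of all genes without overlap was not computed. Itga9 is known as a receptor subunit of lymphatic valves. The cells were clustered apart on other genes and come from the same libraries, so these are values without a test.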
